A study of Mus musculus with 16 samples.

Results

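The Reg family lectins analysed here were Reg1, Reg3a, Reg3b and Reg3g, 4 genes picked by symbol out of the 49585 genes in the count table. All 4 had enough reads to enter the test across genes. They were followed in small intestinal organoids, which are three-dimensional epithelial cultures grown from crypts in medium with EGF, Noggin and R-spondin. Organoids came either from mice that carry villin-cre and loxP-flanked Atg16l1 (ΔIEC) or from cre-negative Atg16l1 fl/fl littermates (fl/fl), so both genotypes carry the floxed alleles and villin-cre removes the gene from intestinal epithelium only. Donors were on a C57BL/6 background and 8 to 12 wk old. Cultures were left untreated or received mouse IL-22 at 10 ng/ml for 24 h, with 4 cultures in each of the 4 groups. Each genotype was represented by 2 organoid lines. Under either treatment, a line gave 2 cultures, so that replicates 1 and 2 belong to the first line and replicates 3 and 4 to the second. The cultures of a line are therefore not separate donors, and because each line has 1 genotype, genotype and line cannot be told apart where only 2 lines stand on each side.

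Reg proteins are small secreted C-type lectins. In the gut, Reg3g and Reg3b are antimicrobial products of Paneth cells and enterocytes that help to keep bacteria away from the epithelial surface, Reg3g by binding the peptidoglycan of Gram-positive bacteria. Reg1 is best known from the exocrine pancreas and from regenerating epithelium, and Reg3a is a further secreted lectin of the same cluster. IL-22, a cytokine of innate lymphoid cells and T cells, acts on epithelium through IL22RA1 and IL10RB and through phosphorylated STAT3, and Reg3b and Reg3g are classical readouts of this axis.

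The 4 genes are protein coding and lie in 1 cluster on chromosome 6 (GRCm38), between the start of Reg3b at position 78370657 and the end of Reg3g at position 78468872. The cluster holds 6 annotated genes, in the order Reg3b, Reg3d, Reg3a, Reg2, Reg1 and Reg3g, with Reg3d and Reg3g on the minus strand and the others on the plus strand. The stretch from 170 to 22 bases before the RefSeq start of each gene (GRCm38.p6) is shown because the 4 genes rose together under IL-22. In GENCODE, whose positions are used for the cluster, Reg3b starts at 78370657 and Reg1 at 78422711, both on the plus strand. The stretches of Reg3b and Reg1 therefore lie inside the GENCODE genes, downstream of those starts. The stretches cover chr6:78370715-78370863 on the plus strand for Reg3b, chr6:78468896-78469044 on the minus strand for Reg3g, chr6:78425813-78425961 on the plus strand for Reg1 and chr6:78380539-78380687 on the plus strand for Reg3a. Capitals mark matches, on either strand, to TTCNNNGAA, the letters of a STAT dimer site, and to TATAAA, the letters of a TATA box.
Reg3b: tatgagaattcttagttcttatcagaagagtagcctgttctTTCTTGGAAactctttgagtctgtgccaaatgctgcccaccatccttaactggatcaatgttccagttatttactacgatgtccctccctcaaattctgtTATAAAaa
Reg3g: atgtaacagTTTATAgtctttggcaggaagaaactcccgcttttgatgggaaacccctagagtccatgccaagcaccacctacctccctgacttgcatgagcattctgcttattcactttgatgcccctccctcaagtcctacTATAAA
Reg1: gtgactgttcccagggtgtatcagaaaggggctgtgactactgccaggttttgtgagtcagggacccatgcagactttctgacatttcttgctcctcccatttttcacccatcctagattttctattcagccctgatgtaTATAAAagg
Reg3a: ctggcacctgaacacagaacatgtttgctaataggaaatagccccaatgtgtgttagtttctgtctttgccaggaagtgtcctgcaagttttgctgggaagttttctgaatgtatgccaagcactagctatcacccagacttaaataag
Over the full 250 bases before the start, TTCNNNGAA occurred once before Reg3b and not before Reg3g, Reg1 or Reg3a, and 7.02% of all 32851 promoters in the table held it. With 4 bases instead of 3 between TTC and GAA, a match occurred once before Reg1, outside the stretch shown, and 5.85% of all promoters held one. TATAAA on the strand of the gene, 21 to 35 bases before the start, was found for Reg3b, Reg3g and Reg1 but not for Reg3a, against 1.71% of all promoters. It was also found for Reg2, which stayed near 0 counts, and TTCNNNGAA was also found once before Reg3d. Reg3g held a second match on the other strand. Over the aligned bases of the 250-base windows, Reg3b and Reg3g were 70.04% identical, Reg3a and Reg3g 71.9%, and Reg1 between 60.5% and 63.4% identical to the other 3 members. These matches describe letters and were not tested as binding sites. The longest protein-coding transcripts of Reg3b and Reg3g were 74.7% identical over 739 aligned bases and shared no exact run longer than 35 bases, and no pair of members shared a longer one. With reads of 150 nt, such runs are shorter than a read.

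In the libraries, between 2135000 and 5574860 reads were counted on genes. Atg16l1 itself had 91 to 276 counts in the 8 fl/fl cultures and 1 to 21 counts in the 8 ΔIEC cultures, so every culture lay on the side its label gives (log2 difference -3.90 ± 0.37 untreated and -4.51 ± 0.38 under IL-22, adjusted p = 1.3e-06 and 2.2e-07). No culture stood out as a copy of another. The cultures carried the defining markers of small intestinal epithelium: Lyz1, Itln1 and defensins for Paneth cells, and Fabp2, Sis and Apoa4 for enterocytes. Of the immune markers, Cd3e was at 0 in all cultures and the list summed to 9.09 to 15.8 CPM, most of it from Csf1r with group means of 7.66 to 9.63 CPM. Of the 5 pancreatic acinar markers, Prss1, Cpa1, Amy2a5 and Pnlip were at 0 in all cultures and Cela1 had group means of 10.4 to 14.7 CPM.

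Without IL-22, the 4 Reg genes were expressed at a low level in both genotypes. Levels are given in CPM, the usual scaling of gene counts to a common library size, here with TMM factors. In untreated fl/fl organoids, Reg3g had 14.9, 12.5, 19.0 and 13.4 CPM in replicates 1 to 4. Reg3b had 13.4, 11.2, 10.9 and 15.5 CPM in the same cultures. For these 2 genes the cultures lay close together and the lines overlapped. Reg1 was at 1.46 and 1.28 CPM in the first fl/fl line and at 7.71 and 6.96 CPM in the second. Reg3a was at 0.584 and 1.02 CPM in the first line and at 6.80 and 2.67 CPM in the second, from 2 to 15 counts. For both genes the second fl/fl line was thus higher than the first in every culture (log2 2.38 ± 0.85, adjusted p = 0.0608 for Reg1, and 2.32 ± 0.66, adjusted p = 0.0166 for Reg3a, neither under the threshold of 0.01, which 7.21% of genes met). Per kilobase of the longest protein-coding transcript, which allows genes to be compared, the order in untreated fl/fl organoids was Reg3g (19.4 ± 3.76 CPM per kb, SD, n = 4), Reg3b (16.3 ± 2.75), Reg1 (4.81 ± 3.82) and Reg3a (3.36 ± 3.43). Without treatment, ΔIEC organoids had the same order of means, with Reg3g (18.4 ± 5.87), Reg3b (14.3 ± 2.71), Reg1 (12.9 ± 5.43) and Reg3a (7.03 ± 4.23). The SDs of Reg3g and Reg3b overlapped in either genotype, as did those of Reg1 and Reg3a. In ΔIEC, the SD of Reg1 also overlapped with those of Reg3b and Reg3g, so these genes were not set apart there. By their mean level per kb, Reg3g ranked 3742nd and Reg3b 4251st of 21703 protein-coding genes in untreated fl/fl organoids.

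IL-22 raised all 4 Reg genes in both genotypes, and Reg3b and Reg3g became the most and the second most abundant of the 21703 protein-coding genes per kb in both. In fl/fl organoids, Reg3b reached 18333, 18179, 20000 and 20131 CPM in replicates 1 to 4. ΔIEC cultures reached 31959, 29485, 21162 and 24691 CPM, from 8.44 to 13.3 CPM in the untreated cultures. Every treated culture was more than 3 orders of magnitude above every untreated one, and no ΔIEC culture under IL-22 was as low as an fl/fl culture. The rise was 1483-fold in fl/fl (log2 10.53 ± 0.18, SE, 4 against 4 cultures, adjusted p = 1.5e-19) and 2389-fold in ΔIEC (log2 11.22 ± 0.18, adjusted p = 7.3e-20). These and all further fold changes across genes are from edgeR's quasi-likelihood test with Benjamini-Hochberg adjustment over 12559 genes and a threshold of 0.01.

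Reg3g, the other antimicrobial lectin with a well-studied function in the small intestine, rose to 11402, 11327, 12676 and 12248 CPM in fl/fl organoids. ΔIEC cultures reached 18222, 16805, 11747 and 13647 CPM, from 11.1 to 20.9 CPM untreated. The first ΔIEC line was higher than all other cultures, whereas in the second line 1 culture lay among the fl/fl cultures and 1 above them. The rise was 812-fold in fl/fl (log2 9.66 ± 0.20, adjusted p = 6.0e-18) and 1091-fold in ΔIEC (log2 10.09 ± 0.21, adjusted p = 3.6e-18). Reg3b and Reg3g together made up 98.6% to 99.7% of the reads of the 4 genes in treated cultures. The 4 genes took 2.77% to 3.15% of all gene counts in treated fl/fl cultures and 3.26% to 4.85% in treated ΔIEC cultures, against 0.00253% to 0.00532% in the untreated cultures of both.

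Reg1 and Reg3a rose as well, to much lower levels. Reg1 reached 221, 245, 61.2 and 69.5 CPM in replicates 1 to 4 of treated fl/fl organoids. ΔIEC cultures reached 244, 441, 283 and 515 CPM. The second fl/fl line, which had the higher level untreated, had the lowest level of all treated cultures. The rise of Reg1 was 36.4-fold in fl/fl (log2 5.19 ± 0.57, adjusted p = 1.2e-06) and 32.8-fold in ΔIEC (log2 5.04 ± 0.48, adjusted p = 1.7e-07). Reg3a reached 34.4, 24.3, 31.9 and 40.1 CPM in treated fl/fl organoids. ΔIEC cultures reached 128, 126, 34.2 and 41.7 CPM, so that the first line stood far above the fl/fl cultures, while in the second line 1 culture lay among them and 1 just above. Its rise was 13.5-fold in fl/fl (log2 3.76 ± 0.59, adjusted p = 7.4e-05) and 12.9-fold in ΔIEC (log2 3.69 ± 0.46, adjusted p = 5.1e-06). Summing the 2 cultures of each line, which leaves 2 against 2 sums, took Reg3a in fl/fl to an adjusted p of 0.0151.

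**Figure D1:**
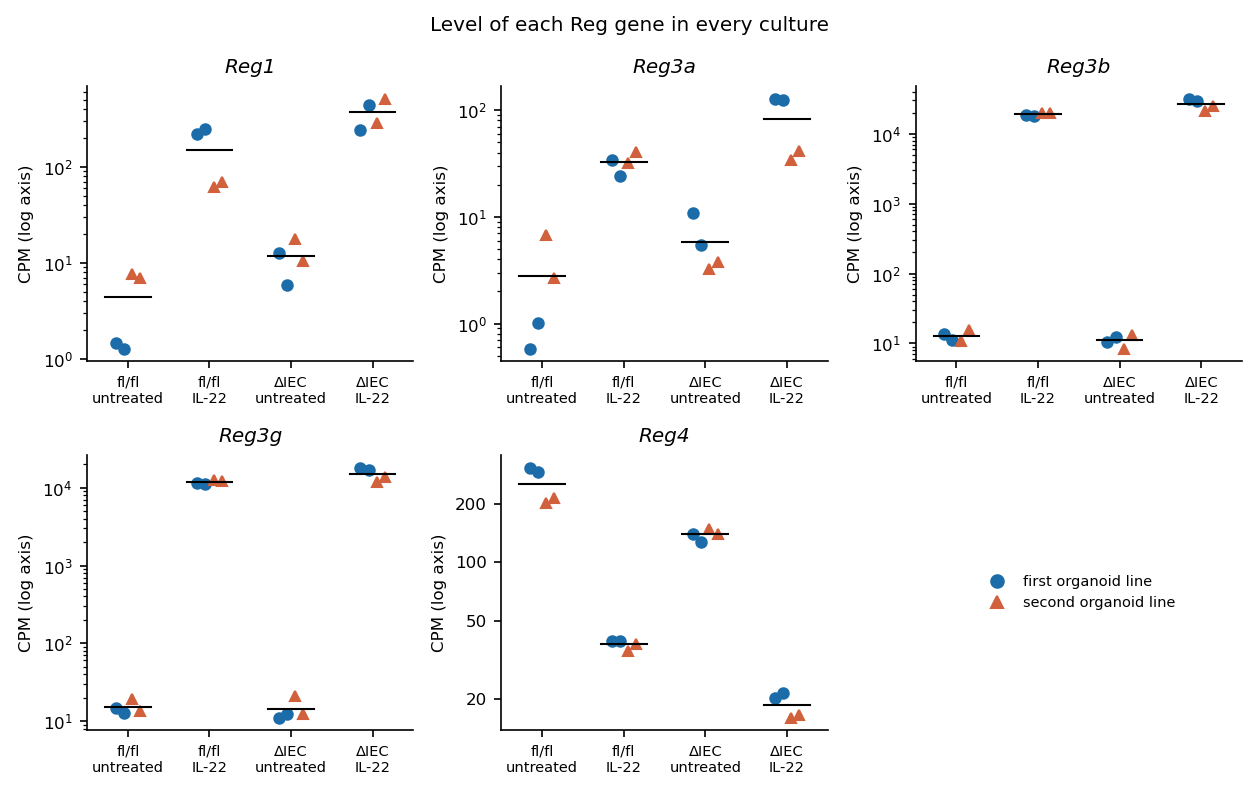
Level of Reg1, Reg3a, Reg3b, Reg3g and Reg4 in CPM (log axis) in each of the 16 cultures, by genotype and treatment. Circles are the first and triangles the second organoid line of a genotype, and horizontal bars are means of 4 cultures. Treated cultures of Reg1, Reg3a, Reg3b and Reg3g lie above all untreated cultures of their genotype, and those of Reg4 lie below.

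Across all genes, 4 of 4 Reg genes passed as higher in each genotype, beside 20.8% of tested genes called in fl/fl (10.6% higher and 10.2% lower) and 17.5% in ΔIEC (9.83% higher and 7.65% lower). In all 4 genes the treated and untreated cultures did not overlap in either genotype, as for 30.9% of tested genes in fl/fl (15.4% upward) and 27.3% in ΔIEC (14.1% upward and 13.2% downward). The median of the 4 log2 fold changes was 7.43 in fl/fl and 7.56 in ΔIEC, against -0.05 and -0.01 over all tested genes. By fold change, Reg3b ranked 2nd and Reg3g 3rd of 12559 genes in fl/fl, and 1st and 3rd in ΔIEC. By p-value they ranked 1st and 2nd in both. Reg1 ranked 14th and 16th and Reg3a 23rd and 29th by fold change in fl/fl and ΔIEC, but 192nd and 136th (Reg1) and 682nd and 344th (Reg3a) by p-value.

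**Figure D2:**
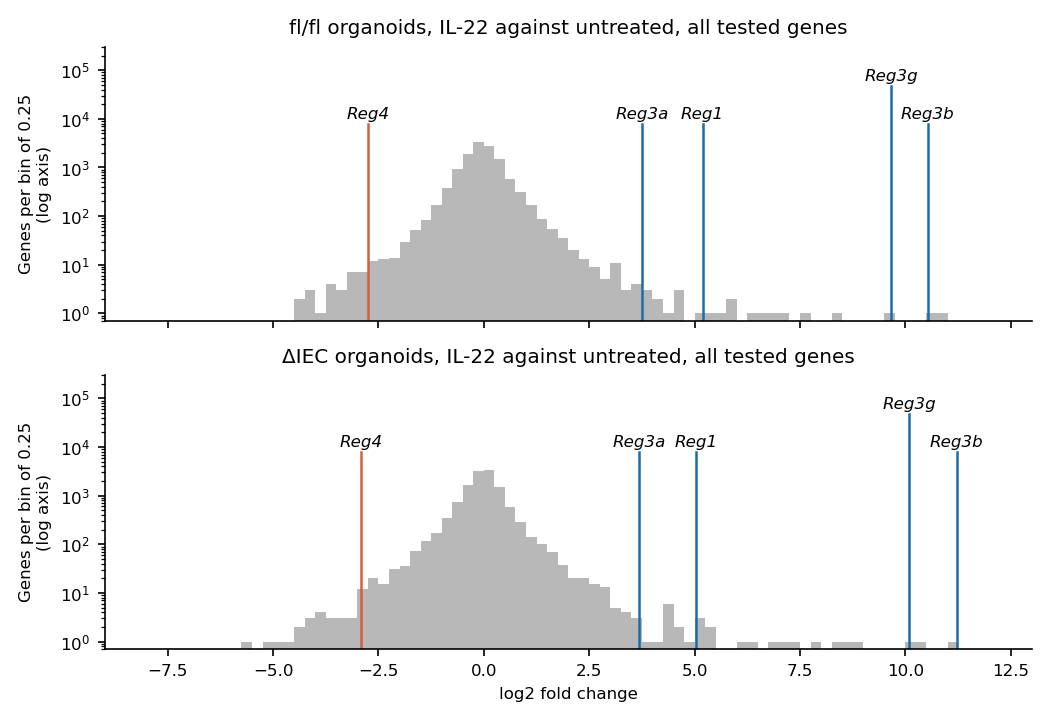
Distribution of log2 fold changes (IL-22 against untreated) over the 12559 tested genes in fl/fl (top) and ΔIEC (bottom) organoids, with the number of genes per bin of 0.25 on a log axis. Vertical lines mark the Reg genes, and their height carries no value. Reg3b, Reg3g, Reg1 and Reg3a lie far in the upper tail, and Reg4 lies in the lower tail.

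The members differed from each other in the size of their response. Whether 2 members rose by the same factor was tested on their log2 ratio within each culture, for 6 pairs in each genotype, with a two-sided exact permutation test of 4 against 4 cultures that cannot give a p below 0.0286. Of the 12 ratios, 10 changed with IL-22, each at the smallest p of this exact permutation test (adjusted p = 0.0343 over the 12). Reg3b rose more than Reg3g in fl/fl (by 0.90 ± 0.20 on the log2 scale, SE) and in ΔIEC (by 1.14 ± 0.32). The log2 ratio of Reg1 to Reg3b changed by -5.52 ± 0.81 in fl/fl and by -6.21 ± 0.52 in ΔIEC. The ratio of Reg1 to Reg3a was the exception, as its change of 1.32 ± 0.68 in fl/fl and 1.36 ± 0.79 in ΔIEC missed the threshold (exact permutation p = 0.143 in each, adjusted p = 0.143). Permuting only within organoid lines cannot give a p below 0.0556, so that none of the 12 could pass with the pairing by line kept.

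Among treated cultures, the ratio of Reg3b to Reg3g was nearly constant. It was 1.61, 1.60, 1.58 and 1.64 in fl/fl replicates 1 to 4. In ΔIEC it was 1.75, 1.75, 1.80 and 1.81, above every fl/fl culture. The mean log2 ratio was 0.15 higher in ΔIEC, which is given as a description without a test, since the comparison was chosen after the values were seen and each genotype is 2 lines. The ratio is formed within a library and does not depend on scaling between libraries. Without treatment it lay between 0.571 and 1.16 in fl/fl and between 0.404 and 1.07 in ΔIEC, from 21 to 58 counts per gene and culture. The ratio of Reg1 to Reg3a, in contrast, ran from 1.73 to 10.1 over the treated fl/fl cultures and from 1.90 to 12.4 over the treated ΔIEC cultures, with the lines apart in both.

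**Figure D3:**
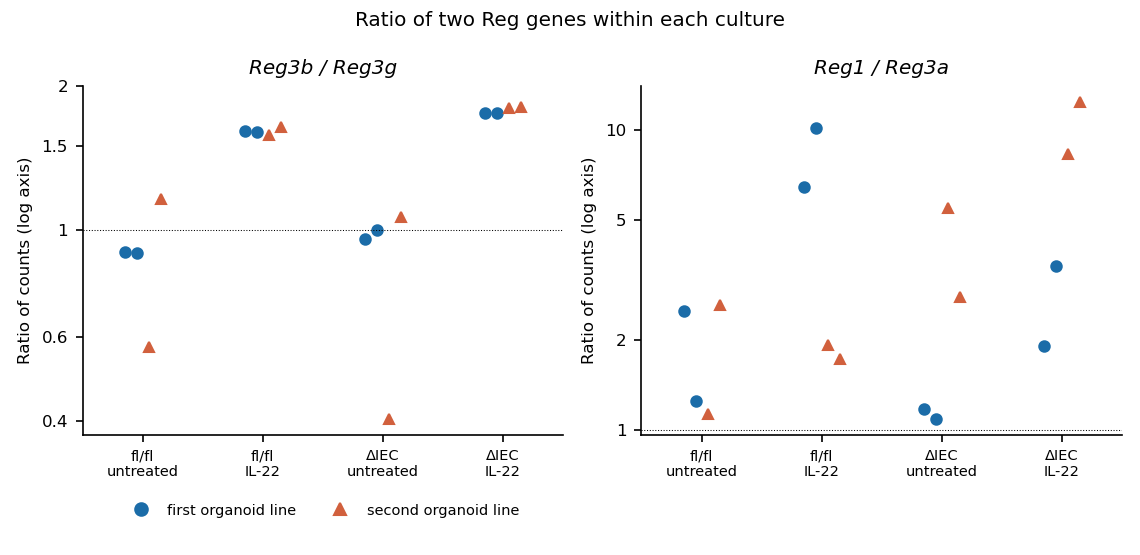
Ratio of counts of Reg3b to Reg3g (left) and of Reg1 to Reg3a (right) within each of the 16 cultures, on log axes. Circles are the first and triangles the second organoid line of a genotype, and the dotted line marks equal counts. Under IL-22 the Reg3b to Reg3g ratio lies between 1.58 and 1.64 in fl/fl and between 1.75 and 1.81 in ΔIEC, while the Reg1 to Reg3a ratio separates the lines.

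In fl/fl, the response of Reg1 differed most between the 2 lines and that of Reg3b least, whereas in ΔIEC it was that of Reg3g that differed most. In a fit of the 8 line and treatment means, which was chosen after the values were seen, Reg3b rose by log2 10.53 ± 0.15 (SE, 2 against 2 cultures) in the first and 10.52 ± 0.15 in the second fl/fl line. In the ΔIEC lines it rose by 11.39 ± 0.15 and 11.04 ± 0.15 (difference -0.34 ± 0.23, adjusted p = 0.889). Reg1 rose by 7.39 ± 0.41 in the first fl/fl line and by 3.16 ± 0.38 in the second, in which it started higher and ended lower. This difference of -4.23 ± 0.86 missed the threshold (adjusted p = 0.0251), which 0.0159% of all genes passed. In the ΔIEC lines Reg1 rose by 5.20 ± 0.28 and 4.82 ± 0.29, with a difference of -0.38 ± 0.52 (adjusted p = 0.954). Reg3a rose by 5.06 ± 0.41 and 3.06 ± 0.29 in the fl/fl lines (difference -2.005 ± 0.70, adjusted p = 0.466). In the ΔIEC lines Reg3a rose by 3.95 ± 0.20 and 3.44 ± 0.33. Reg3g rose by 10.55 ± 0.16 and 9.56 ± 0.15 in the ΔIEC lines (difference -0.98 ± 0.23, adjusted p = 0.0602, with 0.111% of genes called) and by 9.70 ± 0.15 and 9.63 ± 0.15 in the fl/fl lines.

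Levels under IL-22 differed between lines of 1 genotype for each of the 4 genes in at least 1 genotype. In treated fl/fl organoids, Reg1 was lower in the second line than in the first by log2 -1.85 ± 0.21 (adjusted p = 3.3e-07, 2.55% of genes called). Reg3a, Reg3b and Reg3g missed the threshold there. In treated ΔIEC organoids, the second line was lower for Reg3a (-1.74 ± 0.16, adjusted p = 3.5e-09), for Reg3g (-0.46 ± 0.10, adjusted p = 0.00156) and for Reg3b (-0.42 ± 0.09, adjusted p = 0.0022), with 3.57% of genes called, while Reg1 missed it (0.20 ± 0.18, adjusted p = 0.6005). In treated cultures the lines thus separated on different members in the 2 genotypes.

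**Figure D4:**
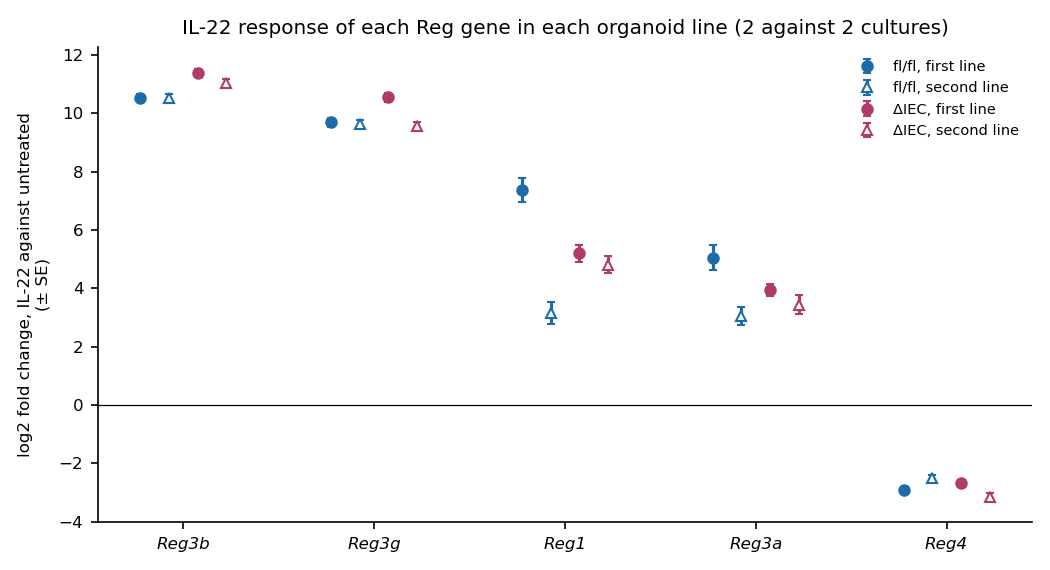
Log2 fold change of each Reg gene (IL-22 against untreated, ± SE, 2 against 2 cultures) in each of the 4 organoid lines. Reg3b rises by 10.53 and 10.52 in the 2 fl/fl lines, whereas Reg1 rises by 7.39 in the first and by 3.16 in the second fl/fl line, and Reg4 falls in all 4 lines.

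Whether the loss of Atg16l1 changed the response to IL-22 was asked with the difference of the 2 responses. None of the 4 Reg genes passed (0 of 4, beside 0.0159% of tested genes, 0.00796% with a larger and 0.00796% with a smaller response in ΔIEC). At an unadjusted p under 0.05 in edgeR, 1 of the 4 was found, Reg3b, beside 7.26% of tested genes. Its response was larger in ΔIEC by log2 0.69 ± 0.21 (edgeR, 95% interval 0.25 to 1.13, adjusted p = 0.412), and with the organoid line as a block by 0.73 (adjusted p = 0.0143). The block raised the number of genes called from 2 to 56, none of them a Reg gene. The difference was 0.43 for Reg3g (-0.08 to 0.94), -0.15 for Reg1 (-1.90 to 1.60) and -0.07 for Reg3a (-1.65 to 1.51). The intervals of Reg1 and Reg3a allow a difference of more than 2-fold in either direction.

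In untreated organoids, none of the 4 Reg genes passed between the genotypes (0 of 4, beside 9.76% of tested genes, 3.78% higher and 5.98% lower in ΔIEC). Reg1 was at 12.7, 5.91, 17.7 and 10.4 CPM in ΔIEC replicates 1 to 4, which overlapped with the second fl/fl line but not with the first. The difference to fl/fl was log2 1.48 ± 0.77 (95% interval -0.13 to 3.09, adjusted p = 0.183). Reg3a was at 10.8, 5.41, 3.22 and 3.74 CPM, with a difference of 1.40 ± 0.78 (-0.23 to 3.03, adjusted p = 0.214). For Reg3b the difference was -0.20 (-0.58 to 0.17) and for Reg3g -0.08 (-0.51 to 0.34). Without the second fl/fl line, Reg1 passed (3.01, adjusted p = 0.00567).

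Under IL-22, 3 of the 4 Reg genes were higher in ΔIEC than in fl/fl organoids, beside 19.8% of tested genes called (9.91% higher and 9.84% lower). Reg1 was 2.51-fold higher (log2 1.33 ± 0.36, adjusted p = 0.00847), Reg3a 2.52-fold (1.33 ± 0.36, adjusted p = 0.00832) and Reg3b 1.40-fold (0.49 ± 0.11, adjusted p = 0.00269). Reg3g was 1.27-fold higher but missed the threshold (0.34 ± 0.13, adjusted p = 0.0528). Only for Reg3b did the 2 genotypes not overlap, as for 29.6% of all tested genes (15.4% upward and 14.2% downward). Reg1 and Reg3a were close to the threshold, and leaving out single lines ended the calls. Without the first ΔIEC line, the difference of Reg3a was 0.22 (adjusted p = 0.627), that of Reg3b 0.25 (adjusted p = 0.123) and that of Reg1 1.43 (adjusted p = 0.035). Reg1 differed by 1.19 (adjusted p = 0.0538) when the second ΔIEC line was left out, and without the second fl/fl line it was 0.67 (adjusted p = 0.0442). Without the first fl/fl line, that of Reg3b was 0.39 (adjusted p = 0.0332). Fitted on the 2 treated groups alone, or with the cultures of each line summed, none of the 3 passed. With DESeq2, Reg3b alone passed. Marker levels of Paneth cells moved along with genotype. The 7 Paneth cell markers summed to 4097 to 4960 CPM in treated ΔIEC and to 7478 to 10190 CPM in treated fl/fl cultures. Of these markers, 6 of 7 were called lower. Untreated, they summed to 3340 to 4380 CPM in ΔIEC and to 6042 to 8634 CPM in fl/fl cultures. There, 4 of 7 were called lower and 0 higher, beside 5.98% of tested genes lower. The summed enterocyte markers overlapped between the genotypes under IL-22, at 1621 to 2153 and 1469 to 1896 CPM, with 2 of 8 called higher and 0 lower. Among the 6 stem cell markers, 3 were called higher and 1 lower in treated ΔIEC cultures. In bulk RNA, fewer cells of a type and less RNA per cell cannot be told apart, and the part of such shifts in the Reg levels was not tested.

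**Figure D5:**
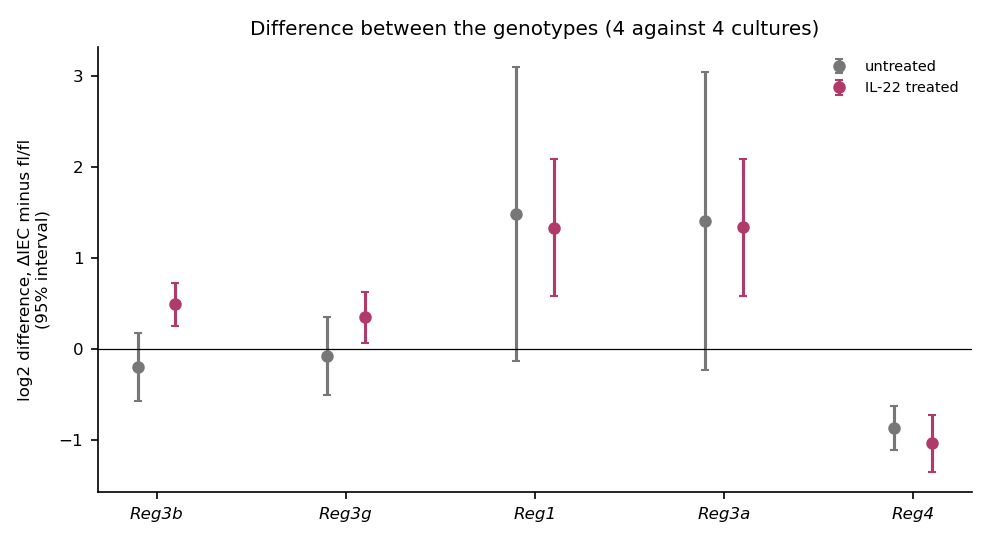
Log2 difference between ΔIEC and fl/fl organoids for each Reg gene, untreated and under IL-22, with 95% intervals from the fit across all genes (4 against 4 cultures). The intervals of Reg1 and Reg3a are wide without treatment, and Reg4 is the only gene of the 5 that is lower in ΔIEC under both conditions.

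Of the other Reg genes of the mouse, Reg4, which lies outside the cluster on chromosome 3 and marks secretory cells of the intestinal epithelium, fell with IL-22. In fl/fl cultures, Reg4 stood at 307, 291, 202 and 215 CPM without and at 39.6, 39.5, 35.3 and 38.4 CPM with IL-22. In ΔIEC cultures, Reg4 stood at 141, 127, 149 and 140 CPM untreated and at 20.3, 21.3, 16.017 and 16.5 CPM treated. Groups did not overlap in any of these comparisons. It was 6.68-fold lower with IL-22 in fl/fl (log2 -2.74 ± 0.13, adjusted p = 3.7e-12) and 7.52-fold lower in ΔIEC (-2.91 ± 0.14, adjusted p = 7.9e-12), and the 2 responses differed by -0.17 (95% interval -0.57 to 0.22). Reg4 was also lower in ΔIEC than in fl/fl, by log2 -0.87 ± 0.11 untreated (adjusted p = 5.2e-05) and by -1.04 ± 0.15 under IL-22 (adjusted p = 5.0e-05). Other secretory markers were lower in ΔIEC too, 4 of 8 goblet and 1 of 6 enteroendocrine markers untreated and 5 of 8 and 3 of 6 under IL-22. Of all tested genes, 5.98% were lower untreated and 9.84% under IL-22. The goblet markers summed to 1337 to 1788 CPM in ΔIEC and 1768 to 2677 CPM in fl/fl untreated, and to 852 to 1378 and 1610 to 2353 CPM under IL-22, and their part in the level of Reg4 was not tested. With the cultures of each line summed, the 2 differences of Reg4 missed the threshold (adjusted p = 0.0407 and 0.0174). In untreated organoids, Reg4 was more abundant per kb than any of the 4 members (248 ± 51.7 CPM per kb in fl/fl and 136 ± 8.75 in ΔIEC, SD, n = 4), and under IL-22 it was below Reg1 (37.4 ± 1.97 and 18.1 ± 2.60).

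Within the cluster, the neighbours Reg3d and Reg2 stayed close to 0, although they lie between members that rose in both genotypes. Reg3d had 0 counts in all 8 untreated cultures and 1, 2, 8 and 9 counts in treated fl/fl and 5, 3, 3 and 5 counts in treated ΔIEC cultures. The treated cultures were above the untreated ones in both genotypes (two-sided exact permutation p = 0.0286 in each, 4 against 4 cultures, the smallest it can give), but most stood near the limit of 3 counts per library, that is 0.563 to 1.36 CPM, so no fold is given. Reg2 had 0 to 6 counts in every culture, and treated against untreated cultures gave an exact permutation p of 0.8 in fl/fl and 0.771 in ΔIEC. Both were too low for the test across genes. Reg2 was the closest relative of Reg1 in sequence, with 80.4% identical bases over the aligned transcripts. Outside the cluster, the nearest protein-coding genes with any count were Ctnna2 before it and Gm20594 after it, and both had at most 1 count in any culture.

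In a list of 20 genes of IL-22 and STAT3 signalling, 17 were tested. Of these, 6 rose in fl/fl and 7 in ΔIEC, and none fell. Of all tested genes, 10.6% rose in fl/fl and 9.83% in ΔIEC, and 10.2% and 7.65% fell. The median log2 fold change of the list was 0.17 and 0.32 (-0.05 and -0.01 over all tested genes). Socs3, the feedback inhibitor of STAT3, rose from 9.43 ± 2.66 to 225 ± 39.6 CPM in fl/fl (SD, n = 4) and from 8.88 ± 1.85 to 171 ± 17.7 CPM in ΔIEC. Osmr, the oncostatin M receptor, had at most 1 count in any untreated culture and averaged 11.3 ± 2.70 CPM in treated fl/fl and 8.26 ± 6.40 CPM in treated ΔIEC organoids. Stat3 rose by log2 1.35 and 1.47, Il22ra1 by 0.49 and 0.58. Il10rb, the other chain of the receptor, missed the threshold in both, as did Cish, Pias3 and Ptpn2, which restrain STAT signalling. The difference of the 2 responses was called for none of the 17.

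Other genes of mucosal defence behaved in part like the Reg genes. Of 22 listed, 15 were tested, of which 10 rose in fl/fl and 10 in ΔIEC, beside 10.6% and 9.83% of all tested genes. Pigr, the transporter of secreted IgA, fell in ΔIEC, as did 7.65% of all tested genes. The median log2 fold change was 1.97 and 3.21. Lcn2, a siderophore-binding protein, had at most 2 counts in any untreated culture and averaged 59.5 ± 12.6 CPM in treated fl/fl and 69.4 ± 13.1 CPM in treated ΔIEC organoids. Retnlb, which encodes an antibacterial resistin-like protein, had 0 counts in all untreated cultures and averaged 4.24 ± 1.84 CPM in treated fl/fl and 16.8 ± 7.54 CPM in treated ΔIEC organoids. Under IL-22, 6 of the 15 were higher in ΔIEC than in fl/fl and 3 were lower, and without IL-22 1 was higher and 3 were lower. Over all tested genes, 9.91% were higher and 9.84% lower under IL-22, and 3.78% higher and 5.98% lower without it. For the difference of the 2 responses, 1 of the 15 was called, Mptx2, beside 0.0159% of tested genes. Its response was larger in ΔIEC (log2 3.44 ± 0.51, adjusted p = 0.00958). Mptx2 had at most 4 counts in untreated ΔIEC cultures and averaged 8.59 ± 2.25 CPM in untreated fl/fl organoids. Treated, it averaged 49.4 ± 15.3 CPM in ΔIEC and 53.7 ± 7.78 CPM in fl/fl. The median difference of the 15 was log2 0.69, against 0.03 over all tested genes. Lyz1, which encodes the lysozyme of Paneth cells, stood at 2124 ± 376 CPM untreated and 2034 ± 317 CPM treated in fl/fl organoids (SD, n = 4) and missed the threshold, and 1 of the 7 Paneth markers, Mmp7, was called higher in each genotype.

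Of 3 genes reported as receptors or partners of Reg proteins, Egfr rose with IL-22 by log2 1.18 ± 0.18 in fl/fl (adjusted p = 5.7e-05) and by 0.81 ± 0.19 in ΔIEC (adjusted p = 0.00257). Extl3, the proposed receptor of Reg1, was at 37.1 ± 3.41 CPM untreated and 32.1 ± 3.22 CPM treated in fl/fl, and missed the threshold in both genotypes. Cd44 missed it as well, but was higher in ΔIEC, by 0.73 untreated and 0.88 under IL-22. While the 4 Reg genes rose, 6 of 8 enterocyte markers and 4 of 6 stem cell markers fell in fl/fl. In ΔIEC, 4 of 8 and 5 of 6 fell. Of all tested genes, 10.2% fell in fl/fl and 7.65% in ΔIEC. The part of these marker changes in the Reg levels was not tested.

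The pattern of Reg3b and Reg3g over the 16 cultures was nearly the same, with a Pearson correlation of log2 CPM of 0.998. This value is set by the 2 treatments, and the points share their libraries. The tested genes most like Reg3b were Lcn2, B3galt5, Lrg1, Tat and Tifa (0.989 to 0.995). Those most like Reg3g were Ly6c1, Lcn2, B3galt5, Lrg1 and Tifa (0.991 to 0.993), so 4 of 5 were shared with Reg3b. All of these were called higher in both genotypes. Reg1 was less like Reg3b (0.917) and had Dmbt1, Map4k4, Prss32, Gm20412 and Ripk1 beside it (0.954 to 0.961). Dmbt1, which encodes a secreted mucosal scavenger receptor, was higher in ΔIEC untreated by 1.91 and under IL-22 by 1.05 on the log2 scale. The genes most like Reg3a were Bcl2l15, Agpat4, Rassf4, Gmds and Idh1 (0.954 to 0.965). After the group means were taken away, the correlation was -0.11 for Reg3b and Reg3g, 0.30 for Reg1 and Reg3a and between -0.23 and 0.31 for the other pairs. These values pool treated cultures with untreated ones, which had 21 to 58 counts of Reg3b and Reg3g, and in treated ΔIEC cultures both genes were lower in the second line, as given above. The deviations of Reg3a were most like those of Myb, Mthfd1, Hook1, Mad2l1 and Scin (0.906 to 0.922), those of Reg1 like Cep41, Eif3b, Ints11, Pknox1 and Gm15964 (0.786 to 0.857). For Reg3b they were most like Tmtc4, Gm12940, Alkbh8, C530005A16Rik and Slc30a1 (0.801 to 0.858), and for Reg3g like Slc35a4, Uap1, Cbx8, Slc5a8 and Trit1 (0.773 to 0.859). None of these lists shared a gene with another. Each holds the 5 highest values picked out of the 12559 tested genes over 16 cultures, 2 per line and treatment. Such a search finds high values without a shared pattern as well, so the lists are a description without a test. The deviations also hold line differences. In treated ΔIEC cultures, Reg3a averaged 127 CPM in the first and 37.9 CPM in the second line.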

How the data were processed

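RNA from 16 organoid cultures was sequenced by the authors as 150-nt paired-end reads. Per the methods and the submitters' processing notes, reads were trimmed with cutadapt, aligned with TopHat2 to GRCm38 and assigned to genes with HTSeq. The authors deposited raw read counts per gene. The labels and the methods name different library kits, and the strand setting and annotation release are not given in the sources used here. Between 61.7% and 63.7% of the tabulated reads fell outside genes, on several genes or on several places, and these 5 summary lines were left out.

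Of 49585 gene IDs, 99.5% matched GENCODE M21, from which symbols and transcript lengths were taken. Promoters are from RefSeq (GRCm38.p6) and were found for all 4 members. The counts were tested with edgeR 4.0.16 in R 4.3.3 (filterByExpr, TMM, quasi-likelihood test, 1 fit of the 4 group means, 12559 genes, adjusted p under 0.01). SE is the log2 fold change over the square root of F. Ratios of members used log2 CPM with a prior count of 2 and exact permutation tests (adjusted p under 0.05). In a simulation of the IL-22 comparison in fl/fl on 12559 genes, 75% of genes changed by log2 1 and 97% of those changed by log2 2 were recovered, with 0.581% of calls false. The simulated cultures were drawn independently and without organoid lines, so these rates do not cover cultures that share a line. P-values measure the spread between cultures, of which 2 each come from 1 line.

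Deviations from group means were compared between untreated and treated cultures to see whether lines pair them. They correlated at 0.263 to 0.438 (fl/fl) and 0.0563 to 0.321 (ΔIEC) within a line and at -0.435 to -0.218 and -0.352 to -0.0779 between lines, and the labels give the line, so the line was used as a block in an alternative. Other alternatives were DESeq2 1.42.0, limma-voom 3.58.1 with correlated lines, RLE scaling, TMM without Reg genes, other filters, fewer groups, summed lines, and leaving out each culture or line. Members, gene lists and tests were chosen with earlier results of these data known. Named genes were the 4 members, Reg2, Reg3d, Reg4, Atg16l1, the genes in and beside the cluster, the 5 genes most correlated with each member by log2 CPM and by deviations, and up to 4 genes per list with the largest changes. Stat3, Il22ra1, Il10rb, Lyz1, Pigr, Mmp7, Mptx2, Extl3, Cd44, Dmbt1, Csf1r, Cela1, Cish, Pias3 and Ptpn2 were described further after their values were seen.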

Additional observations from a re-analysis of the deposited data

How the results depend on the processing

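The rise of the 4 Reg genes with IL-22 kept its direction under every alternative run. In each genotype 2 of the 4 were called when at least 10 counts were required in every culture, since Reg1 and Reg3a were then not tested, and summing the cultures of a line left 3 in fl/fl. Untreated, requiring no minimum count called 2 genes between genotypes, Reg1 and Reg3a, and leaving out 1 culture or line gave 0 to 1. With no minimum count, edgeR gave far smaller p-values at nearly the same log2 fold change. For Reg1 with IL-22 in fl/fl, the adjusted p was 6.1e-246 at log2 5.20, against 1.2e-06 at 5.19 as reported. The calls of that setting are therefore not on a par with the others. Under IL-22, the 3 genes called between genotypes became 0 in a fit of the treated groups alone and with summed lines, 1 with DESeq2 and 1 with at least 10 counts in every culture, 2 with limma-voom, 4 with no minimum count, and 0 to 3 without 1 culture or line. The difference of the responses of Reg3a turned positive with the organoid line as replicate block (0.11) and with DESeq2 (0.16). Without 1 culture or line, that difference ran from -1.39 to 0.59 for Reg3a, from -2.34 to 1.86 for Reg1, from -0.10 to 0.83 for Reg3g and from -0.43 to 0.0064 for Reg4, and the untreated difference of Reg3g ran from -0.31 to 0.19. The cause of these changes was not tested. Of the 12 ratios of members, 10 passed with prior counts of 0.5 and 5. With a replicate block within lines 0 passed, as the smallest exact permutation p (0.0556) lies above the threshold. Without any 1 culture 0 passed as well. The genotype that lost the culture could then give no exact permutation p below 0.0571, while the other genotype kept 0.0286 as its smallest. After adjustment over the 12, every ratio was at 0.0686 or above. In the edgeR fit, the line block could be used only for the 2 IL-22 responses and their difference, and there it changed no call of a member. Each line has 1 genotype, so the calls between genotypes could not be run with it. Over all alternatives, the number of all genes called ran from 543 to 4057 (2608 as reported) for IL-22 in fl/fl, from 635 to 3500 (2195) in ΔIEC, from 0 to 80 (2) for the difference of responses, from 10 to 2559 (1226) between untreated genotypes and from 188 to 4168 (2481) between treated ones. Reg3a, with 2 to 15 counts in untreated fl/fl cultures, and Reg3d are limited by depth.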
